A study of Homo sapiens with 3 samples.

Results

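The effect of the lower dose of JG231 on gene expression was examined in H660, an established human cell line from a neuroendocrine prostate cancer, a tumour type that carries features of nerve and hormone-secreting cells. JG231 is an allosteric inhibitor of the HSP70 chaperones that holds them in their ADP-bound form. The study made 3 RNA-seq libraries from H660 cells, 1 after vehicle (DMSO), 1 after 2.5 µM JG231 and 1 after 5 µM JG231, and both JG231 treatments lasted 24 h. The comparison described here set the 2.5 µM library against the DMSO library, and values from the 5 µM library are given beside it. The deposited table lists FPKM, the fragments counted on a gene per kilobase of its length and per unit of sequencing depth, for 58735 genes. A gene entered the set when it reached 10 FPKM in the DMSO or the 2.5 µM library, which 5528 of the 58735 genes did. The change of a gene is log2 of the 2.5 µM FPKM plus 0.1 over the DMSO FPKM plus 0.1, so a change of 1 is a 2-fold higher level.

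Each condition had 1 library, so no test between conditions was possible, and each difference compares these libraries and has no replicate check. Intervals are 95% exact binomial intervals on the fragments behind a gene. They cover counting error only, since 1 library a side holds no spread between cultures or libraries. No molecular identifiers are described for these libraries either. The other yardstick at hand was the robust SD of the log2 difference between the JG231 libraries over genes of similar FPKM, which ran from 0.19 to 0.54 over the 221 named genes of the set, with a median of 0.26. The doses of those libraries differ, so this spread is not a replicate error. The fragments recovered from the FPKM values totalled 16921019 in the DMSO library, 22861564 in the 2.5 µM library and 28156756 in the 5 µM library. Fewer genes were above 0 in the 2.5 µM library than in the DMSO library, 19352 against 21862, although it held more fragments.

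HSP70 chaperones bind exposed hydrophobic stretches of client proteins in cycles of ATP hydrolysis and nucleotide exchange, and hand clients on for folding or for degradation. Cells read unfolded protein, amino acid shortage and mitochondrial stress through kinases that phosphorylate the initiation factor eIF2α. This slows translation in general and favours that of ATF4, a transcription factor that with its partners C/EBPβ, C/EBPγ and CHOP switches on genes for amino acid supply, tRNA charging and stress control, a program called the integrated stress response. The binding sequence shared by ATF4 and its C/EBP partners is the composite element TGATGNAA.

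The cells carried the neuroendocrine identity given by their label. In the DMSO library SYP was at 17.7 FPKM, CHGA at 46.0, ENO2 at 37.0 and INSM1 at 13.4, while the prostate luminal genes KLK3 and KLK2 were at 0.13 FPKM and 0. Of 14 markers of fibroblasts, endothelium, immune cells and blood, none reached 10 FPKM in any library, and DCN, PECAM1, PTPRC, CD3E and LYZ were listed at 0 in the DMSO and the 2.5 µM library. The endothelial cadherin CDH5 had 481 fragments in the DMSO library (4.92 FPKM) and 59 in the 2.5 µM library (0.48 FPKM).

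In the set, 850 genes (15.4%) were at least 2-fold higher at 2.5 µM and 425 genes (7.69%) were at least 2-fold lower. In bulk RNA, fewer cells of a kind and less RNA per cell cannot be told apart. Rescaling both libraries to the same FPKM sum without mitochondrial and small RNA genes turned this split from 66.7% higher to 40.2% higher (461 higher, 685 lower), and centring on the median gene gave 42.7% (488 higher, 654 lower). The median change of the set was 0.26 on the deposited scale, and the medians of gene groups below are to be read against that shift. The filter bears on these counts, since 988 genes of the set reached 10 FPKM only at 2.5 µM and could only be higher there, and 719 reached it only in DMSO and could only be lower. Among the 4540 genes with at least 10 FPKM in DMSO, 411 (9.05%) were at least 2-fold higher and 425 (9.36%) at least 2-fold lower. With no filter, of the 23560 genes above 0 in the DMSO or the 2.5 µM library, 13.9% were at least 2-fold higher and 28.7% at least 2-fold lower. These shares are the background for the counts of gene lists in the set, among members with at least 10 FPKM in DMSO, and over all listed members. A change of at least 4-fold was seen for 129 genes upward and 108 downward, and one of at least 8-fold for 41 and 44. Under each alternative of scale, pseudocount and length that was tried, the 25 largest rises stayed at least 2-fold higher and the 25 largest falls at least 2-fold lower. These genes were picked as the extremes of the same values, so this is no check on them.

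**Figure D1:**
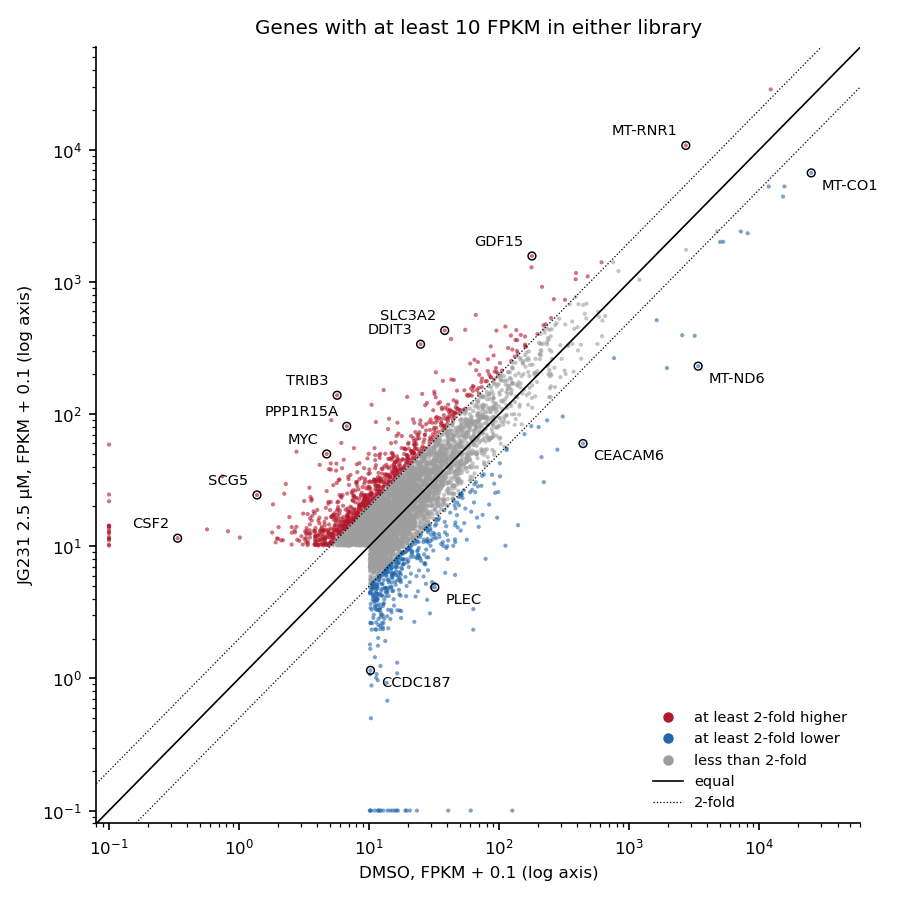
FPKM of the 5528 genes of the set in the DMSO library (horizontal, log axis) and the 2.5 µM library (vertical, log axis), 1 point per gene, with 0.1 added to both. Red points (850) lie at least 2-fold above the line of equality and blue points (425) at least 2-fold below it, and TRIB3, DDIT3, GDF15 and SLC3A2 lie far above it while CEACAM6, PLEC and MT-ND6 lie far below.

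Genes of the integrated stress response stood among the largest rises. TRIB3, a pseudokinase that ATF4 and CHOP induce and that restrains AKT and ATF4, lies at chr20:362835-397559 on the plus strand (GRCh38). It was at 5.58 FPKM in DMSO, 139 at 2.5 µM and 163 at 5 µM, a change of 4.61 at the lower dose (24.5-fold, interval 4.47 to 4.81), the largest among protein-coding genes with at least 1 FPKM in both libraries. DDIT3, which encodes CHOP, lies at chr12:57516588-57521737 on the minus strand and was at 24.8, 338 and 397 FPKM in the same order, a change of 3.76 at 2.5 µM (interval 3.64 to 3.90). PPP1R15A, which encodes GADD34, the regulatory subunit that brings a phosphatase to eIF2α, lies at chr19:48872212-48876059 on the plus strand and was at 6.63, 80.8 and 103 FPKM, a change of 3.59 (interval 3.45 to 3.77). All of these were far higher in both JG231 libraries than in DMSO, and 2.5 µM already gave most of the level seen at 5 µM.

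Other genes of the program stood close behind. ATF3, a stress-induced repressor of the same bZIP family, was at 12.8 FPKM in DMSO, 152 at 2.5 µM and 191 at 5 µM (change 3.55). SLC3A2, the heavy chain that carries the LAT1 and xCT amino acid transporters to the membrane, was at 38.0, 429.6 and 487 FPKM (change 3.49). SESN2, a leucine sensor that restrains mTORC1, was at 4.07, 41.2 and 41.0 FPKM (change 3.31). GDF15, a secreted hormone of stressed cells that acts on appetite through the brain stem, was already abundant at 179 FPKM and reached 1572 and 1637 (change 3.14). CEBPB, a C/EBP partner of ATF4, was at 54.7, 434 and 497 FPKM (change 2.99), and CEBPG, another, at 36.8, 178 and 169 (change 2.27). ATF4 itself was at 90.6, 278 and 331 FPKM, a smaller change of 1.62.

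Of the 28 listed targets of ATF4 and CHOP, 16 were in the set, 14 of these were at least 2-fold higher (15.4% of the whole set) and none was at least 2-fold lower, with a median change of 2.73. The filter raised that median, which was 1.96 over members with at least 5 FPKM in either library and 1.87 over all 28, of which 18 were at least 2-fold higher and none at least 2-fold lower. Of the 12 members with at least 10 FPKM in DMSO, 10 were at least 2-fold higher. The other members of the set were KLHL24, with a change of 0.61, and ERO1A, with a change of -0.30. The 12 members outside the set were below 10 FPKM in both libraries. Well-known targets were among them: CHAC1, a glutathione-degrading enzyme, was at 3.90 FPKM in DMSO and 6.63 at 2.5 µM, and ASNS, asparagine synthetase, at 0.77 and 5.21.

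The promoter windows of RefSeq (GRCh38.p14, 250 bases before to 50 after a transcription start) are shown for 5 higher genes that hold the composite element, ATF3, SLC3A2 and CEBPG from this list, the ER degradation gene HERPUD1 and the alanyl-tRNA synthetase AARS1, so that the letters can be compared. These were the only members of this list in the set with the element, 3 of 14 genes with a promoter entry (3 of 23 windows), and the windows of DDIT3, TRIB3 and PPP1R15A lacked it. The capitals mark TGATGNAA, read on either strand, so that in some windows its reverse complement stands.
ATF3, chr1:212565157-212565456, plus strand: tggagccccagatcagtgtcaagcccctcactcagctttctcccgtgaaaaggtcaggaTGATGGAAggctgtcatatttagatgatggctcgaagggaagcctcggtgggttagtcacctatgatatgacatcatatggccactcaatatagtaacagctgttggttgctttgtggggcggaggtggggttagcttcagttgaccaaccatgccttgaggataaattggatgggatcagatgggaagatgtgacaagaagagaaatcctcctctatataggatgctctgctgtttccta
SLC3A2, chr11:62881449-62881748, plus strand: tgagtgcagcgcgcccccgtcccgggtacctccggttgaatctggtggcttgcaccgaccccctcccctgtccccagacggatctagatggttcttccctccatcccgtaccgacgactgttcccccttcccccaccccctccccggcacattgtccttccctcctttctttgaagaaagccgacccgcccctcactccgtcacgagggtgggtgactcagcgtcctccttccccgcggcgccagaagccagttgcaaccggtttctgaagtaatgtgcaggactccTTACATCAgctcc
HERPUD1, chr16:56931892-56932191, plus strand: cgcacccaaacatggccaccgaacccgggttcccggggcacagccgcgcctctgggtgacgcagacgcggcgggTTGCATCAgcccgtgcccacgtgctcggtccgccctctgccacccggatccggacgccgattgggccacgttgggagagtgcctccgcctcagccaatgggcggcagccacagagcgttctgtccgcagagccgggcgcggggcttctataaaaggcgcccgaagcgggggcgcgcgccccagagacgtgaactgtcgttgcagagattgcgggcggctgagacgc
CEBPG, chr19:33373863-33374162, plus strand: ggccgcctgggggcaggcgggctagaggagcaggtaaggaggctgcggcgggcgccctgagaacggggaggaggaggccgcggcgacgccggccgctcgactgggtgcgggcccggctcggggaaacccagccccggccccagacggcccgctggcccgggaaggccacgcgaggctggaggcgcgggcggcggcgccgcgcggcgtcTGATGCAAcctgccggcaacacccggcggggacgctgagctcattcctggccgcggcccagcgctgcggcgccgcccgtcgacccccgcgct
AARS1, chr16:70289457-70289756, minus strand: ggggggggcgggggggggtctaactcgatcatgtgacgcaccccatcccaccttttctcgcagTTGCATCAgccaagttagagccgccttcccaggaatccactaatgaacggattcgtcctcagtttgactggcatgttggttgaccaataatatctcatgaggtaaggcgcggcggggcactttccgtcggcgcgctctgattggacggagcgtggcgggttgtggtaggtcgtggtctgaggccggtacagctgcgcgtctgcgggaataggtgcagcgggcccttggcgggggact

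In these windows the element begins 191 bases before the start of ATF3, 176 before that of HERPUD1, 42 before that of CEBPG, 187 before that of AARS1, and at base 38 after the start of SLC3A2. Among the 25 largest rises, 20 genes had a promoter entry with 29 windows in all, and 4 of these windows (13.8%) held the element. None of the 22 windows of the largest falls held it, against 1270 of all 35116 windows (3.62%). The element was more frequent in the windows of amino acid transporters of the set (5 of 13, 38.5%) and of cytosolic aminoacyl-tRNA synthetases (7 of 20, 35.0%). The AP-1 letters TGANTCA occurred in 4 of 29 windows of the rises (13.8%), 3 of 22 of the falls (13.6%) and 7.71% of all windows. The metal response core TGCNCNC was at 55.2%, 54.5% and 55.9%, and the heat shock element (3 inverted GAA units) was in none of the windows of the rises or falls and in 0.49% of all. These are matches of letters, not binding sites, and no test was made.

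Among genes that supply and charge amino acids, 7 of 13 genes of serine, one-carbon and asparagine synthesis and 10 of 19 tRNA synthetases in the set were at least 2-fold higher, beside 15.4% of the whole set. Of 7 amino acid transporters 1 was, a share near that of the set. SHMT2, the mitochondrial serine hydroxymethyltransferase, was at 59.8 FPKM in DMSO, 241 at 2.5 µM and 296 at 5 µM (change 2.01). ASS1, which makes argininosuccinate for arginine synthesis, was at 1.90, 11.3 and 12.2 FPKM (change 2.51). PHGDH, the entry enzyme of serine synthesis, was at 12.4, 38.5 and 42.7 FPKM (change 1.63), and MTHFD1L, a mitochondrial folate enzyme, at 4.05, 16.3 and 17.2 (change 1.99). None of the 13 synthesis genes was at least 2-fold lower, and their median change was 1.18, or 0.82 over all 19 listed. Of the 13, 4 reached 10 FPKM only at 2.5 µM, and of the other 9, 4 were at least 2-fold higher (9.05% of all such genes). PSPH, which completes serine synthesis, did not share the difference (16.3 and 15.7 FPKM). The median of the 7 transporters was 0.56, and 0.27 when the FPKM sum was matched without mitochondrial and small RNA genes. The transporter gene that passed 2-fold was SLC3A2, and its partner SLC7A5 was at 17.9 and 26.5 FPKM (change 0.56).

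Of 19 cytosolic aminoacyl-tRNA synthetases in the set, which load amino acids onto tRNAs, none was at least 2-fold lower and the median change was 1.08. SARS, the enzyme for serine, was at 31.8 FPKM in DMSO, 142 at 2.5 µM and 153 at 5 µM (change 2.16), and WARS, the enzyme for tryptophan, at 15.9, 61.3 and 66.2 (change 1.94). AARS, for alanine (AARS1 in the sequences above), was at 47.3, 150.6 and 166 FPKM (change 1.67). The enzymes for arginine and glutamine, RARS and QARS, were lower by less than 2-fold (changes of -0.48 and -0.67). Among synthetases with a promoter entry, the 7 with the composite element (AARS, TARS, MARS, IARS, GARS, CARS and NARS) had changes from 0.63 to 1.67 with a median of 1.34. The 8 without it had changes from -0.67 to 2.16 with a median of 0.65, and these ranges overlap.

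Chaperones of the endoplasmic reticulum (ER) did not share the size of this difference. HSPA5 (BiP), the ER HSP70, was at 209 FPKM in DMSO, 305 at 2.5 µM and 353 at 5 µM, a change of 0.54, while HSP90B1 (GRP94) was at 248, 135 and 119 FPKM, a change of -0.88. CALR (calreticulin) was at 428, 263 and 304 FPKM (change -0.70), and PDIA4, a disulfide isomerase, at 62.4, 33.1 and 42.1 (change -0.91). DNAJB9, a BiP cochaperone, was the only one of the 18 ER chaperones and folding enzymes that was at least 2-fold higher (5.98 and 23.7 FPKM, change 1.97), and DNAJC10, a disulfide reductase with a J domain, the only one at least 2-fold lower on the deposited scale (15.0 and 5.99 FPKM, change -1.31). With the FPKM sum matched without mitochondrial and small RNA genes, HSP90B1 and PDIA4 passed 2-fold lower too. The list's median change was -0.07, below that of the set. Among 16 ER stress sensors and degradation factors 4 were at least 2-fold higher, 2 of them among the 12 with at least 10 FPKM in DMSO, counts of a few genes that stand near the background shares of 15.4% and 9.05%. HERPUD1, an ER membrane protein of degradation, was at 6.28, 45.1 and 45.1 FPKM (change 2.82), ERN1, the IRE1α sensor, at 2.08, 11.0 and 8.96 (change 2.35), and XBP1, the transcription factor whose mRNA IRE1α splices, at 47.1, 125 and 139 (change 1.40).

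Among the drug's own target family, none of 8 HSP70 genes in the set reached a 2-fold change in either direction, and their median was 0.36. HSPA8, the constitutive cytosolic HSP70, was at 189 FPKM in DMSO, 136 at 2.5 µM and 180.5 at 5 µM (change -0.47). HSPA9, the mitochondrial HSP70, was at 56.9, 109 and 108 FPKM (change 0.94). The heat-inducible HSPA1B was at 25.2, 36.4 and 52.5 FPKM (change 0.52), and its near-identical copy HSPA1A was at 7.21, 8.72 and 14.2 FPKM, and reads shared between them leave the level of each uncertain. Members outside the set did differ: HSPA6, a strictly stress-inducible HSP70, was at 0.60, 5.63 and 5.73 FPKM (change 3.03), and HSPA12A and HSPA12B were at 0.79 and 1.20 FPKM in DMSO and below 0.1 FPKM at 2.5 µM. HSP90AA1 and HSP90AB1 were at 296 and 618 FPKM in DMSO and at 190.4 and 389 at 2.5 µM (changes of -0.64 and -0.67). The small heat shock protein HSPB1 was at 321, 733 and 912 FPKM (change 1.19) and the heat shock factor HSF1 at 32.2, 72.7 and 77.2 (change 1.17). Of 10 nucleotide exchange factors, BAG proteins and the ubiquitin ligase STUB1, which marks HSP70 clients for the proteasome, 2 were at least 2-fold higher, BAG1 (4.81 and 12.4 FPKM), which reached 10 FPKM only at 2.5 µM, and GRPEL2 (11.1 and 29.8 FPKM), a share near the 15.4% of the set. STUB1 was at 12.7 FPKM in DMSO and 12.8 at 2.5 µM, a change of 0.01.

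Degradation genes were split. Of 28 proteasome subunits 2 were at least 2-fold higher (15.4% of the whole set), PSMB6 (59.2 and 140.2 FPKM) and ADRM1 (53.3 and 107 FPKM), and the list's median of 0.19 was near that of the set and turned to -0.11 when the FPKM sum was matched without mitochondrial and small RNA genes. SQSTM1, the p62 receptor that links ubiquitin to autophagy, was at 30.5, 85.9 and 117 FPKM (change 1.49). It was 1 of 2 autophagy genes of 13 in the set that passed 2-fold, and GABARAPL1 was the other (8.05 and 18.0 FPKM), which is the same share as in the whole set (15.4%). UBB, a ubiquitin precursor, was at 246, 157 and 232 FPKM (change -0.65).

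MYC, which encodes c-Myc, was at 4.62 FPKM in DMSO, 49.9 at 2.5 µM and 45.5 at 5 µM, a change of 3.40 at 2.5 µM with an interval of 3.29 to 3.57 from 446 and 6096 fragments. Its dimer partner MAX was at 10.5, 21.3 and 19.7 FPKM (change 1.01). MYCL, the L-Myc paralogue, went the other way with 20.9, 6.11 and 6.33 FPKM (change -1.76), and MYCN stayed below 1 FPKM in each library (0.69, 0.23 and 0.56).

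The EGF receptor ligand AREG was among the 25 largest rises, as were PLAU, TNFRSF12A and RGS16. AREG was at 2.19 FPKM in DMSO, 29.5 at 2.5 µM and 28.1 at 5 µM (change 3.69). PLAU, the urokinase plasminogen activator, was at 177, 1290.3 and 1049.9 FPKM (change 2.86), and TNFRSF12A, the TWEAK receptor, at 6.02, 60.4 and 77.2 (change 3.31). RGS16, which shortens G-protein signals, was at 2.13, 24.9 and 24.4 FPKM (change 3.49). Of 10 AP-1 and immediate early genes in the set 7 were at least 2-fold higher (15.4% of the whole set, median change 1.38), and 3 of these 7 reached 10 FPKM only at 2.5 µM and could only be higher. Over all 22 listed genes 9 were at least 2-fold higher and none at least 2-fold lower (13.9% and 28.7% of all genes), with JUN at 134, 364 and 424 FPKM and JUNB at 86.1, 325 and 328. Of 15 listed MAPK phosphatases and Sprouty proteins, which restrain MAP kinase signals, 9 were at least 2-fold higher and none at least 2-fold lower (13.9% and 28.7% of all genes). The 5 in the set were all at least 2-fold higher, but 4 of these reached 10 FPKM only at 2.5 µM, so that their direction was fixed by the filter. They were led by DUSP1 (5.48, 37.3 and 44.1 FPKM, change 2.74) and DUSP8 (9.61, 46.1 and 42.6 FPKM, change 2.25), whereas DUSP6, DUSP7 and DUSP16, outside the set, had changes of 0.46, -0.30 and 0.53.

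Of 6 cytokine and chemokine genes in the set 5 were at least 2-fold higher (15.4% of the whole set). Over all 19 listed, low genes included, 8 were at least 2-fold higher and 4 at least 2-fold lower (13.9% and 28.7% of all genes), and the 4 lower genes, IL6, CCL5, CSF3 and IL1A, were below 1 FPKM in DMSO and listed at 0 at 2.5 µM. CXCL8, the neutrophil chemokine IL-8, was at 32.5 FPKM in DMSO, 207 at 2.5 µM and 215 at 5 µM (change 2.67). CSF2, the cytokine GM-CSF, reached 10 FPKM only at 2.5 µM, and had 3 fragments in DMSO and 183 at 2.5 µM, with an interval of the log2 ratio from 4.02 to 7.88. VEGFA was at 16.7, 71.2 and 53.8 FPKM (change 2.08), whereas CCL20 was at 29.4, 16.4 and 21.1 (change -0.84). Of 14 NF-kB subunits and inhibitors 10 were at least 2-fold higher and none at least 2-fold lower (13.9% and 28.7% of all genes). In the set it was 8 of 9 (15.4% of the whole set, median change 1.14), of which 6 reached 10 FPKM only at 2.5 µM, and 4 of 9 with the FPKM sum matched without mitochondrial and small RNA genes. The higher genes included NFKBIA, the inhibitor IκBα, at 112, 460 and 514 FPKM (change 2.04) and the subunit RELB at 5.82, 32.0 and 33.4 (change 2.44).

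Among genes of growth arrest and death, members with opposite roles were higher. GADD45A and GADD45G, stress genes that slow the cell cycle, were at 66.0 and 42.6 FPKM in DMSO, at 563 and 369.65 at 2.5 µM and at 535 and 304 at 5 µM (changes of 3.09 and 3.12). BBC3, the pro-apoptotic protein PUMA, was at 6.10, 38.9 and 36.9 FPKM (change 2.65), and PMAIP1 (NOXA) at 34.4, 93.5 and 86.2 (change 1.44). The pro-survival BCL2L1 was at 13.96, 28.7 and 25.9 FPKM (change 1.04). BMF, another pro-apoptotic member, was lower at 67.5, 16.4 and 13.6 FPKM (change -2.04). Of 11 BCL2 family members in the set 5 were at least 2-fold higher and 1 at least 2-fold lower (15.4% and 7.69% of the whole set), and 5 of the 11 had reached 10 FPKM only at 2.5 µM.

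The clock genes NR1D1 and CIART were also among the 25 largest rises. NR1D1, the nuclear receptor REV-ERBα that represses BMAL1, was at 5.02 FPKM in DMSO, 89.9 at 2.5 µM and 70.3 at 5 µM (change 4.14). CIART, a repressor of the CLOCK and BMAL1 complex, was at 4.82, 38.3 and 30.03 FPKM (change 2.96). Each of these was higher at 2.5 µM than at 5 µM. The promoter window of CIART is shown because it holds the E-box CACGTG, the binding letters of CLOCK and BMAL1, 3 times (capitals, at 129, 71 and 57 bases before the start). The promoter entry of NR1D1, the larger rise, held no E-box. The E-box was present in 3 of 29 windows of the rises (10.3%), 1 of 22 of the falls (4.55%) and 7.26% of all windows.
CIART, chr1:150282304-150282603, plus strand: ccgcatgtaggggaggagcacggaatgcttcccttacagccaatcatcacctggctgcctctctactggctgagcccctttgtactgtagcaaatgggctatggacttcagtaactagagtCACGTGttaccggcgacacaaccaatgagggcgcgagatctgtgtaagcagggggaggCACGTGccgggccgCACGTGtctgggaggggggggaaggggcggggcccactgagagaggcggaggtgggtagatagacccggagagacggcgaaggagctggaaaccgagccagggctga

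The remaining rises in the protein-coding group had other roles. SCG5, the chaperone 7B2 of the prohormone convertase PCSK2, was at 1.27 FPKM in DMSO, 24.3 at 2.5 µM and 23.4 at 5 µM (change 4.15, interval 3.83 to 4.72). It was the only secretory granule gene of the 15 neuroendocrine and granule genes in the set that was at least 2-fold higher. SCG5 reached 10 FPKM only at 2.5 µM, so that its direction was fixed by the filter. RPL22L1, a paralogue of the ribosomal protein RPL22, was at 4.97, 42.3 and 46.2 FPKM (change 3.06), while RPL22 itself was at 35.7 and 38.6 (change 0.11). GAP43, a growth cone protein, was at 3.07, 21.9 and 23.4 FPKM (change 2.80). GBP2, a guanylate-binding protein, was at 1.72, 20.7 and 17.2 FPKM (change 3.51), KRT80, a keratin, at 3.37, 27.6 and 28.7 (change 3.00), and LURAP1L at 10.4, 118 and 119 (change 3.49). LARP6, an RNA-binding protein of collagen mRNAs, closed the group with a change of 2.79, and the next gene below it, the kinase PIM1, had 2.78.

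**Figure D2:**
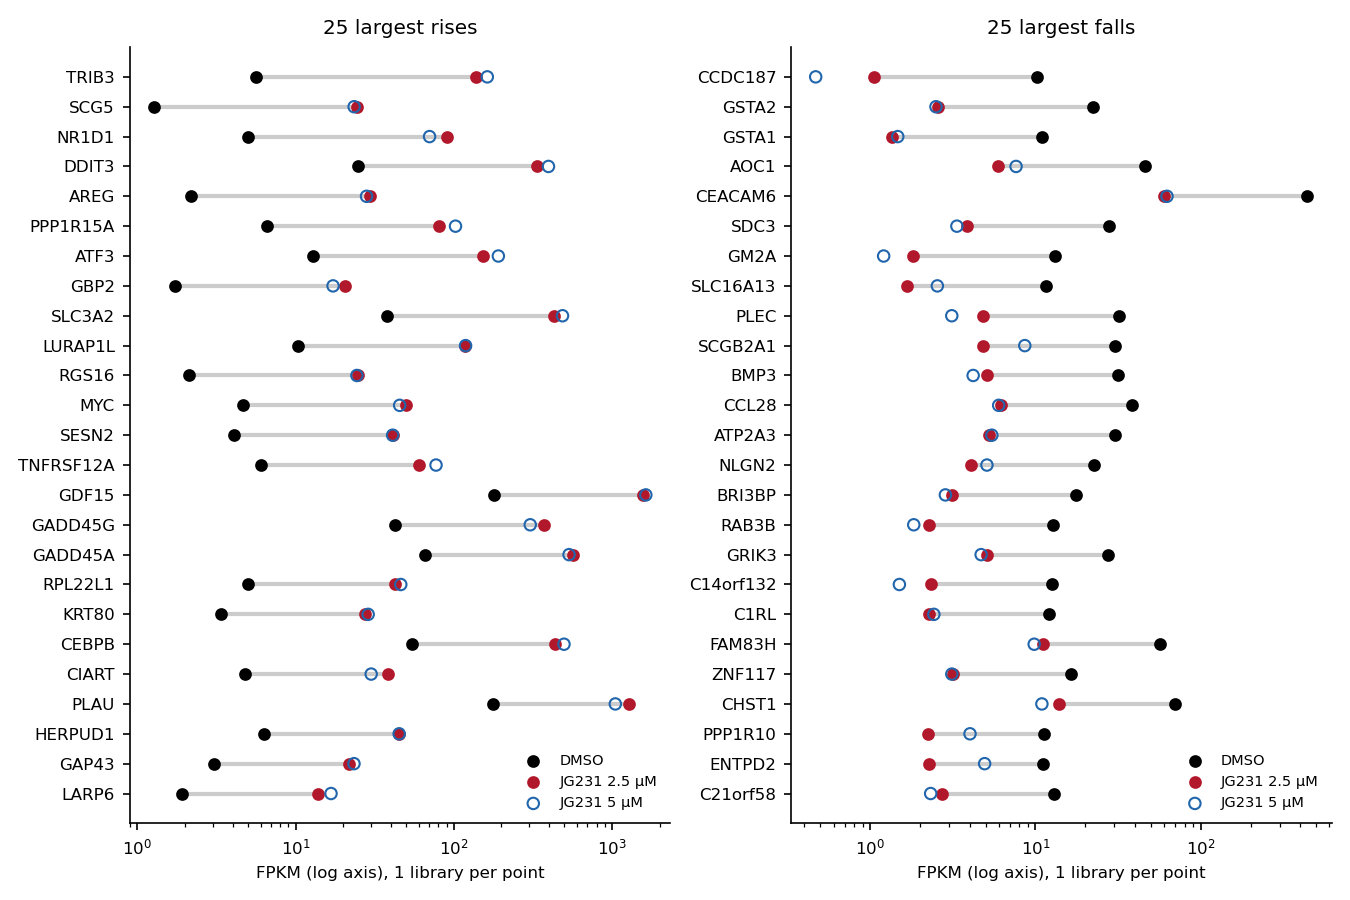
FPKM (log axis) of the 25 largest rises and the 25 largest falls among protein-coding genes of the nuclear genome with at least 1 FPKM in the DMSO and the 2.5 µM library, 1 library per point. In each row of the left panel the DMSO point (black) lies left of both JG231 points (red 2.5 µM, open blue 5 µM), and in each row of the right panel it lies right of them.

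The largest falls held genes of other roles. CEACAM6, a carcinoembryonic antigen cell adhesion protein, was at 442 FPKM in DMSO, 59.8 at 2.5 µM and 62.45 at 5 µM (change -2.88, interval -2.94 to -2.83). Its neighbour CEACAM5, the antigen CEA, stood just outside the 25 with 212, 47.2 and 47.2 FPKM (change -2.16). AOC1, a diamine oxidase that degrades histamine, was at 45.7, 5.97 and 7.63 FPKM (change -2.92), and CCL28, a mucosal chemokine, at 38.4, 6.20 and 5.99 (change -2.61). SCGB2A1, a secretoglobin, rested on 253 and 51 fragments and was at 30.2, 4.80 and 8.62 FPKM (change -2.63). GSTA1 and GSTA2, glutathione transferases of nearly the same sequence whose reads are hard to assign, were at 11.0 and 22.2 FPKM in DMSO and at 1.35 and 2.58 at 2.5 µM (changes of -2.94 and -3.05).

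Cytoskeletal, matrix, neuronal and other genes stood beside them. PLEC, the giant linker plectin, was at 31.9 FPKM in DMSO, 4.79 at 2.5 µM and 3.12 at 5 µM (change -2.71). SDC3, a neural heparan sulfate proteoglycan, was at 27.9, 3.83 and 3.35 FPKM (change -2.83), and CHST1, a keratan sulfotransferase, at 69.5, 13.9 and 10.9 (change -2.31). NLGN2, a postsynaptic adhesion protein, was at 22.7, 4.07 and 5.08 FPKM (change -2.45), GRIK3, a kainate receptor subunit, at 27.3, 5.10 and 4.69 (change -2.40), and RAB3B, a vesicle GTPase, at 12.7, 2.26 and 1.83 (change -2.44). FAM83H was at 56.3, 11.1 and 9.82 FPKM (change -2.33), and ATP2A3, an ER calcium pump, at 30.4, 5.27 and 5.44 (change -2.50). The largest fall of these 25, which leave out the mitochondrial genome and genes under 1 FPKM in either library, was CCDC187, at 10.1, 1.051 and 0.47 FPKM (change -3.15). The other 10 of the 25 (GM2A, SLC16A13, BMP3, BRI3BP, C14orf132, C1RL, ZNF117, PPP1R10, ENTPD2 and C21orf58) had changes from -2.79 to -2.21. PPP1R10 and ENTPD2 were higher at 5 µM than at 2.5 µM (4.02 against 2.24 and 4.92 against 2.26 FPKM).

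Protein-coding genes of the set that fell below 1 FPKM in a library were HIST1H1E, RASL11B and CSF2. HIST1H1E, a linker histone, had 136 fragments in DMSO and 14 at 2.5 µM (11.2 and 0.91 FPKM). RASL11B, a small GTPase, was at 10.1 FPKM in DMSO, 0.97 at 2.5 µM and 1.75 at 5 µM.

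Neuroendocrine marker and secretory granule genes had a median change of -0.50 over 15 members in the set, of which 4 were at least 2-fold lower and 1, SCG5, at least 2-fold higher (7.69% and 15.4% of the whole set). SCG5 had reached 10 FPKM only at 2.5 µM and could only be higher. CHGA (chromogranin A) was at 46.0 FPKM in DMSO, 15.0 at 2.5 µM and 12.7 at 5 µM (change -1.61), and DLL3, an inhibitory Notch ligand, at 24.03, 9.64 and 17.8 (change -1.31). The transcription factors INSM1, SOX2, NKX2-1, POU3F2 and SOX4 differed by less than 2-fold. Among Notch pathway genes LFNG, a glycosyltransferase of Notch, was at 74.5, 17.2 and 15.8 FPKM (change -2.11), and HEY1, a Notch target, was higher at 11.6, 33.3 and 38.8 (change 1.51). Of 9 axon guidance genes in the set 3 were at least 2-fold lower and 1 at least 2-fold higher (7.69% and 15.4% of the whole set), and over all 48 listed, low genes included, the numbers were 18 and 4 (28.7% and 13.9% of all genes). The lower genes were NTNG2 (12.2, 2.83 and 1.81 FPKM, change -2.06), EFNB3 (change -1.70) and EPHA7 (change -1.08), and EFNA1 was higher at 29.7, 90.9 and 110.5 (change 1.61). Of 15 genes of cholesterol synthesis and uptake 2 were at least 2-fold lower and none at least 2-fold higher, beside 7.69% and 15.4% of the whole set, and INSIG1, which restrains the pathway, was at 11.9, 5.82 and 5.27 FPKM (change -1.02).

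Of 16 antioxidant genes in the set 3 were at least 2-fold higher and 2 at least 2-fold lower, while the whole set had 15.4% and 7.69%. FTH1, the heavy chain of the iron store ferritin, was at 214, 918 and 1165 FPKM (change 2.10), with the reservation that it has many processed copies in the genome. PRDX1, a peroxiredoxin, was at 177, 81.0 and 83.9 FPKM (change -1.12). MT2A, the metallothionein with the highest level, was at 59.3, 79.8 and 141 FPKM (change 0.43). None of 12 glycolysis genes passed 2-fold, beside 15.4% higher and 7.69% lower in the whole set. Of 23 mitotic genes CENPF alone was at least 2-fold lower on the deposited scale (28.5, 8.14 and 6.99 FPKM, change -1.79), beside the same 7.69%. With the FPKM sum matched without mitochondrial and small RNA genes, MKI67, KIF20A and KIF4A passed 2-fold lower as well. On that scale 685 of the 5528 genes of the set did. MKI67, the proliferation marker Ki-67, was at 16.0, 8.55 and 5.55 FPKM.

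**Figure D3:**
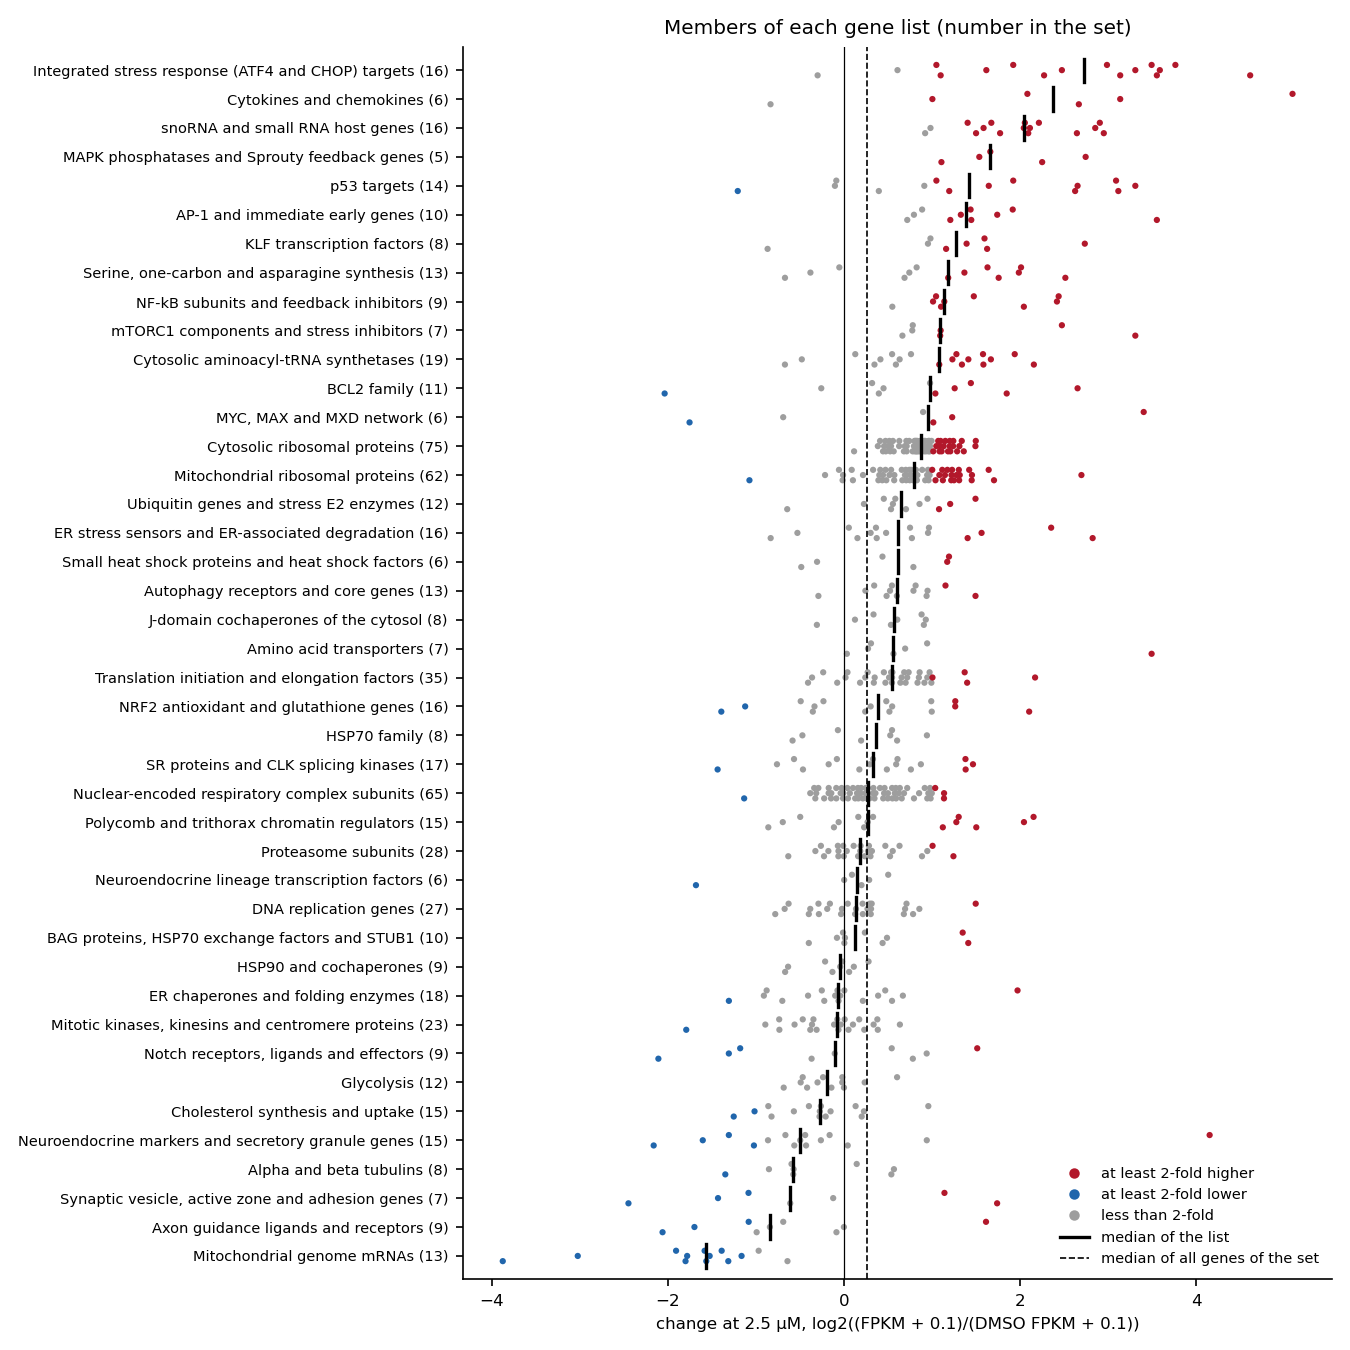
Change at 2.5 µM (horizontal, log2) of each member of a gene list in the set, for lists with at least 5 members there, ordered by median. Points are genes, red at least 2-fold higher and blue at least 2-fold lower, black bars are list medians, and the dashed line is the set's median of 0.26; the stress response targets stand at the top (median 2.73) and the mitochondrial mRNAs at the bottom (median -1.57).

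In the list of Polycomb and trithorax regulators the median was 0.27, close to that of the set and -0.02 when the FPKM sum was matched without mitochondrial and small RNA genes, and 6 of 15 members were at least 2-fold higher (15.4% of the whole set). Of these 6, 4 reached 10 FPKM only at 2.5 µM, so that their direction was fixed by the filter, and of the 11 members with at least 10 FPKM in DMSO 2 were at least 2-fold higher (9.05% of all such genes). Among the 6 were the Polycomb repressive complex 1 genes PCGF1 (4.78, 21.6 and 23.5 FPKM, change 2.15), RNF2, PCGF6, CBX8 and RING1. EZH2, the methyltransferase of Polycomb repressive complex 2, was at 28.6, 35.9 and 30.7 FPKM (change 0.33). Among splicing regulators SRSF3 was at 62.7, 163 and 171 FPKM (change 1.38) and the kinase CLK1 at 22.7, 62.8 and 66.3 (change 1.46), whereas SRSF1 was at 30.5, 11.2 and 10.8 (change -1.44). The translation factor EIF1, which sets start codon stringency, was at 95.1, 428.5 and 462 FPKM (change 2.17), above the median of 0.55 for 35 translation factors.

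Of 130 long non-coding RNAs in the set 37 were at least 2-fold higher and 37 at least 2-fold lower, beside 745 and 315 of 5143 protein-coding genes. Non-coding transcripts held both large rises and large falls. The largest rises with at least 1 FPKM in both libraries were SNHG8 (11.2, 87.1 and 81.2 FPKM, change 2.95), SNHG17 (4.97, 37.9 and 42.0, change 2.91) and SNHG12 (7.55, 55.2 and 55.2, change 2.85), all hosts of small nucleolar RNAs. The metallothionein pseudogene MT2P1 followed from 5 and 47 fragments, and then LINC01644 (2.34, 16.5 and 13.3 FPKM, change 2.77). Of 16 host genes of small RNAs in the set 14 were at least 2-fold higher (15.4% of the whole set) and none at least 2-fold lower, with a median change of 2.05 (7 of the 16 reached 10 FPKM only at 2.5 µM) and GAS5 at 42.8, 183 and 201 FPKM. Many such host transcripts are known substrates of nonsense-mediated decay. The largest falls were COLCA1 (112, 10.005 and 5.79 FPKM, change -3.47), SLC9A3-AS1 (change -3.30), PTCSC3 (29.3, 3.01 and 5.24 FPKM, change -3.24), ZNF710-AS1 (change -2.61) and DLGAP1-AS3 (change -2.39). The strand setting of the counting was not given in the sources used here, so that reads of an antisense gene and its partner may not be told apart.

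Transcripts of the mitochondrial genome differed by class. The ribosomal RNAs MT-RNR1 and MT-RNR2 were at 2725 and 12260 FPKM in DMSO and at 10793 and 28642 at 2.5 µM (changes of 1.99 and 1.22), and together they made up 2.06% of fragments in DMSO and 4.90% at 2.5 µM. All 13 mRNAs were lower, with a median change of -1.57, and 11 of them were at least 2-fold lower (7.69% of the whole set). Their share was 10.4% of fragments in DMSO and 2.99% at 2.5 µM. MT-CO1, a subunit of cytochrome oxidase, was at 25116, 6690 and 9338 FPKM (change -1.91). The largest difference was that of MT-ND6, the only mRNA on the minus strand of the reference, at 3390, 230.6 and 274 FPKM (change -3.88), followed by its neighbour MT-ND5 at 3188, 391 and 510.1 (change -3.03). Of 7 mitochondrial tRNA genes with at least 100 fragments in either library, 6 were at least 2-fold lower (7.69% of the whole set). At 5 µM each of the 13 mRNAs was nearer to DMSO than at 2.5 µM. Nuclear-encoded respiratory subunits did not follow, with a median of 0.27 over 65 genes that turned to -0.02 under the same rescaling.

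**Figure D4:**
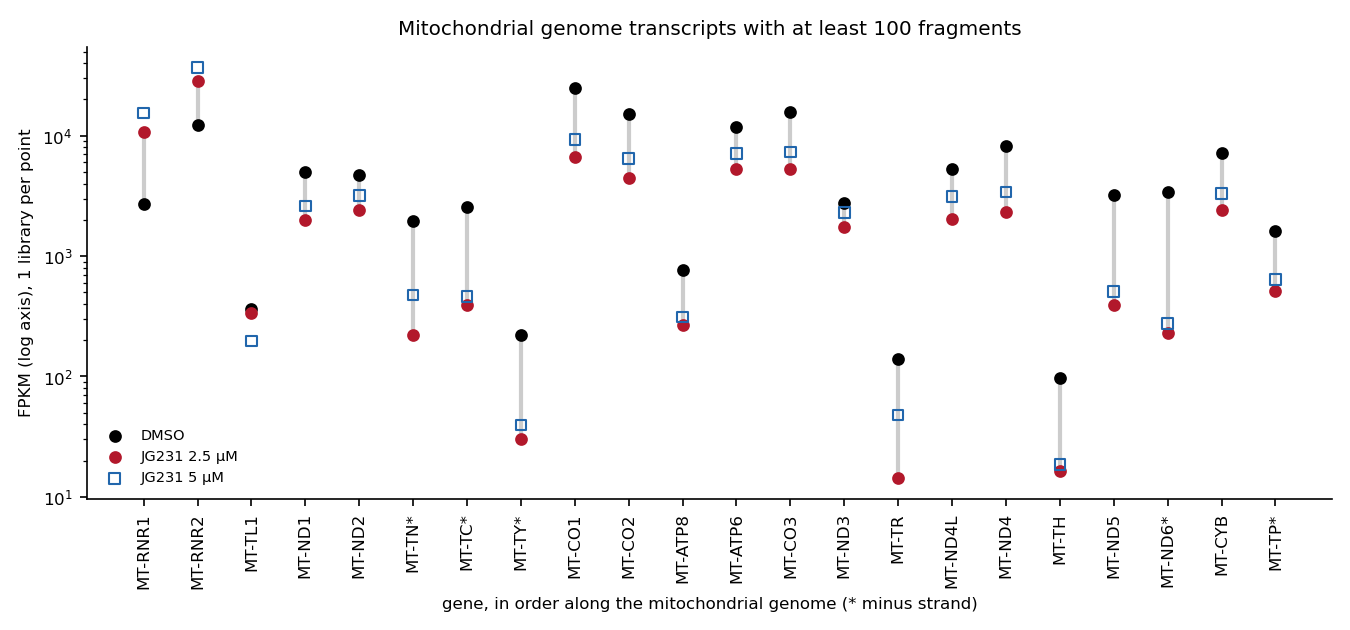
FPKM (log axis) of mitochondrial genome transcripts with at least 100 fragments in the DMSO or 2.5 µM library, in gene order, 1 library per point (black DMSO, red 2.5 µM, open blue 5 µM); an asterisk marks the minus strand. The ribosomal RNAs are higher in both JG231 libraries, and the 13 mRNAs lie below DMSO in both.

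A trend with transcript length ran through the set and moves with several of these groups. In the shortest decile of protein-coding genes of the set, with a median canonical transcript of 814 bases, the median change was 0.55, and 122 of 515 genes were at least 2-fold higher and 17 at least 2-fold lower. In the longest decile, with a median of 7224 bases, the median was -0.20, with 29 higher and 70 lower. Ribosomal proteins, with short transcripts, had a median of 0.88 (21 of 75 at least 2-fold higher, 15.4% of the whole set), and mitochondrial ribosomal proteins had 0.80. The part of transcript length in these differences was not tested. With a smooth length trend removed, 623 genes were at least 2-fold higher and 476 at least 2-fold lower.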

How the data were processed

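RNA was sequenced from H660 cells after DMSO, 2.5 µM JG231 or 5 µM JG231, with 1 library each, and the sample labels gave the groups. The authors deposited FPKM per gene in 1 table, and no counts were used here. Their processing notes name HISAT2 and featureCounts with GRCh38, whereas the methods text names StringTie, and the strand setting is not given in the sources used here. In 15610 of 15611 genes above 0 in all libraries (99.99%), the FPKM values were whole fragments at 1 whole-number length, to within 0.0002 fragments or a relative 3e-09. The depth behind the deposited FPKM values was 95.1%, 89.1% and 85.5% of the recovered totals in DMSO, 2.5 µM and 5 µM, so the values may already have been scaled between libraries.

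Changes are log2(FPKM + 0.1) differences over genes with at least 10 FPKM in either library. A gene at least 2-fold apart is counted as different, with no test, since 1 library a side gives no replicate error. Gene lists (47) and members were chosen with earlier results of these data known. Named genes were the 4 markers, the 25 largest protein-coding rises and falls with at least 1 FPKM in both libraries (mitochondrial genome aside), the 5 largest of other gene types, coding genes under 1 FPKM in a library, up to 4 members per list with the largest change, and cell type markers. Other members of a list, and genes of other groups, are examples named after their values were seen. Genes were matched to GENCODE 44 (58207 of 58735). Scripts ran in Python 3.11.15 with numpy 2.4.6, pandas 2.3.3, scipy 1.17.1 and statsmodels 0.14.6, and were tested on simulated data. Promoter letters came from RefSeq (GRCh38.p14). Some genes are not reported here.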

Additional observations from a re-analysis of the deposited data

How the results depend on the processing

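Counts past 2-fold depended on the filter and the scale. With no filter on low values 3268 genes were higher and 6750 lower, and the median change was 0.00. At least 20 FPKM gave 541 higher and 177 lower, and at least 5 FPKM gave 1161 higher and 924 lower. Matching the FPKM sum without mitochondrial and small RNA genes gave 461 higher and 685 lower with a median of -0.027, and centring on the median gene gave 488 higher and 654 lower. Fragment totals recovered from the values, an alternative chosen after seeing the data, gave 711 higher and 489 lower. For the pseudocounts of 1 and 0.01 FPKM, a common FPKM sum over all genes and summed rows of the same symbol, both counts stayed within 1.5 times. No named gene of the set with a change of at least 1 turned its direction under any alternative. The alternatives treat the same libraries in another way, so this is no replicate check. The medians of the 46 lists with members in the set moved by less than the spread between the JG231 libraries under the pseudocounts and the common sum, and all 46 moved further when centred on the median gene.

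With 1 library a group no left-out replicate could be run. No paired analysis was possible because each group had 1 library. For 45 genes of the set the DMSO or the 2.5 µM library held 3 fragments or fewer, and their changes follow the pseudocount.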

Other observations

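Because NR1D1 and CIART stood among the largest rises, 19 genes of the circadian clock and its output were read after those values were seen, and no test was made. Without NR1D1 and CIART, 17 genes remained, of which 5 were in the set. Of these 5, NFIL3 was at least 2-fold higher, and it reached 10 FPKM only at 2.5 µM, so that its direction was fixed by the filter. Over all 17, low genes included, 8 were at least 2-fold higher and none at least 2-fold lower, beside 13.9% and 28.7% of the 23560 genes above 0 in the DMSO or the 2.5 µM library. NFIL3, a repressor of D-box genes, was at 7.87 FPKM in DMSO, 30.6 at 2.5 µM and 27.4 at 5 µM. CRY2, a repressor of the clock, was at 2.24, 8.57 and 5.32 FPKM, and DBP, an output activator, at 2.82, 9.77 and 8.80. ARNTL (BMAL1) was at 2.95, 8.03 and 7.51 FPKM, whereas its partner CLOCK was at 3.00, 2.49 and 2.31 and PER3 at 13.7, 10.7 and 9.48. Cells were sampled at 24 h only, so a shift in clock phase and a change in level cannot be told apart.

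Surface proteins that serve as targets of antibodies or engineered T cells in neuroendocrine or epithelial cancers were read in the same way, 18 genes chosen after values were seen. CEACAM5, CEACAM6 and DLL3, whose values prompted this, were left out of the count. Of the other 15 genes 6 were in the set, 2 of these were at least 2-fold lower and none at least 2-fold higher, beside 7.69% and 15.4% of all genes of the set. Over all 15, low genes included, 2 were at least 2-fold lower and 1 at least 2-fold higher, beside 28.7% and 13.9% of all genes. The lower genes were MUC1, the mucin, at 27.95 FPKM in DMSO, 10.9 at 2.5 µM and 9.36 at 5 µM, and ERBB3, a receptor of neuregulins, at 35.7, 10.3 and 11.1. SEZ6, a neuronal surface protein, was at 35.8, 18.9 and 19.5 FPKM. EPCAM, an epithelial adhesion protein, was at 302, 262 and 261 FPKM.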
